A study of Homo sapiens with 6 samples.

Results

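SKIL, SKI, SMAD6, SMAD7, SMURF1, SMURF2, BAMBI, PMEPA1, TGIF1 and TGIF2 encode negative regulators of SMAD signalling. These 10 genes were taken by symbol from the 27009 genes of an RNA sequencing table, and all 10 were among the 15076 genes that passed the filter on low values, which asked for 10 or more in 3 libraries or more. The choice was made with earlier results of these libraries known, so the genes were selected on the same contrast of nPD-L1 against vector that is described here. Their differences between the groups are therefore a description. Counts of calls among them apply the rule used for all genes, with no p given for a single inhibitor, and support nothing.

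Transforming growth factor β (TGF-β) and bone morphogenetic proteins (BMPs) bind receptor kinases at the cell surface, which phosphorylate receptor-regulated SMADs. These proteins join SMAD4, enter the nucleus and switch target genes on or off. The pathway is held back at each step by inhibitors, several of which are themselves SMAD target genes and so form negative feedback loops. In liver, TGF-β is best known for arresting hepatocyte growth and for driving fibrosis.

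The study compared PD-L1-knockout Hep3B cells, a human hepatocellular carcinoma line, that carried either the empty vector (3 libraries) or nPD-L1 (3 libraries). nPD-L1 is a mutated PD-L1, with an LCL stretch changed to ACA, that accumulates in the nucleus. It was expressed from the CMV promoter of the lentiviral vector pCDH-CMV-Puro in stable, puromycin-selected cells, and every library lacked the endogenous PD-L1 gene by the labels. The comparison asks which genes differ once PD-L1 is present in the nucleus but not made by its own locus. No age, time course or further treatment is named for either group, and the labels do not say whether the libraries came from separate cultures, so p values may measure only the spread between these samples.

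Each deposited value was a read number scaled by its library's size factor, here called scaled reads, in which 1 read counted as 0.840 to 1.13. The libraries held 17427519 to 22253295 reads on genes, and the 10 inhibitors had 279 to 10045 reads each, so that counting error was at most 5.99% of a value. CD274, the gene of PD-L1, was first checked against the labels. It had 28.3, 38.4 and 47.8 scaled reads in vector replicates 1, 2 and 3, and 16.8, 19.2 and 30.9 in nPD-L1 replicates 1, 2 and 3. CD274 was not higher in the libraries labelled nPD-L1 (log2 fold change -0.76, SE 0.34, adjusted p = 0.338 by limma). CD274 reads thus did not bear out the nPD-L1 label, for a cause that was not tested. Every direction below is that of the labels. The labelled cell type was checked against hepatocyte markers. ALB, APOA1, APOB, TTR and TF, which encode abundant liver plasma proteins, stayed at or below 2.89 scaled reads in all 6 libraries. Of the 8 hepatocyte markers in the table, 5 were under 10 in every library. The summed level of the 8, 982 to 1562 (vector) and 1064 to 1177 (nPD-L1), was almost all FGB. HNF4A reached 6.24 to 19.2 in vector and 33.8 to 51.6 in nPD-L1, and SERPINA1 lay between 7.91 and 41.4. The part of these markers in the differences below was not tested. The data thus went against the label of a liver cancer cell line in these genes. Fibroblast markers summed to 102 to 182 scaled reads (nearly all LUM), endothelial markers to 0.840 to 6.06 and leukocyte markers to 4.82 to 23.5, with overlapping ranges in both groups. Vector replicate 2 stood somewhat apart, with 1281 genes more than 2-fold from vector replicate 3, against 549 to 883 in the other replicate pairs.

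Upstream sequences are shown for SKIL, SMAD7, BAMBI and PMEPA1, which are among the inhibitors with the largest fold changes, and for SMAD6, which holds the rarest motif searched. They were chosen after values and matches were seen, and SMURF1, TGIF1 and TGIF2 also hold matches in the window nearest to their start. They come from RefSeq promoter windows (build GRCh38.p14) of 250 bases before a transcript start, and 9 of the 10 genes had an entry, SKI being the exception. Stretches end where the deposited gene model begins, except where a match runs a few bases past that point. The search covered both strands for GTCTAGAC (the palindromic SMAD site), CAGAC (the short SMAD element) and GGCGCC (a GC-rich SMAD site). It also covered TGANTCA (a pattern that includes the AP-1 site, N being any base), TGACGTCA (the CRE) and GGAATG (the TEAD site). None of these motifs contains another. Capitals mark every match, and CAGAC read on the other strand appears as GTCTG. The SKIL stretch is chr3:170357465-170357677 (plus strand), that of SMAD6 chr15:66701986-66702231 (plus), that of BAMBI chr10:28677271-28677345 (plus) and that of PMEPA1 chr20:57711537-57711722 (minus). For SMAD7 the RefSeq start lies 1087 bases inside the deposited gene model. Only 25 bases around each CAGAC are therefore shown, chr18:48951168-48951192 and chr18:48951079-48951103 (minus).
SKIL: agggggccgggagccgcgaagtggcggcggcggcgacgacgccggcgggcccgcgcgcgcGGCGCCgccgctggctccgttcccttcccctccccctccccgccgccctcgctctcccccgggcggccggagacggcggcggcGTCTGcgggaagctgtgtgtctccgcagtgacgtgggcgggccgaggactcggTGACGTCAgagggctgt
SMAD6: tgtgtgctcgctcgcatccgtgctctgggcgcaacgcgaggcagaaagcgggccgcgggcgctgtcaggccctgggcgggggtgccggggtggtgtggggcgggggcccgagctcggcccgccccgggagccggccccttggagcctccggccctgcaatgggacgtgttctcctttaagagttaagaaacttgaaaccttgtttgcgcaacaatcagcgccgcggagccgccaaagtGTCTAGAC
SMAD7 far site: cggacgccccCAGACctctgaggtt
SMAD7 near site: cttattttgcCAGACgtctcatgcg
BAMBI: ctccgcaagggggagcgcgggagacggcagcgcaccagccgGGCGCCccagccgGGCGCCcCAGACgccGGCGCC
PMEPA1: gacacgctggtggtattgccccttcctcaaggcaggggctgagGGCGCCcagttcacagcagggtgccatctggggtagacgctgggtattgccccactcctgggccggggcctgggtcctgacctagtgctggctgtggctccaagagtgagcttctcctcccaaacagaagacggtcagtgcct

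SMAD6 held GTCTAGAC 12 bases before its RefSeq start, a match found in 0.182% of the 35116 promoter windows of the table. SKIL held TGACGTCA (1.65% of all windows) 54 bases before its start, besides 1 GGCGCC and 1 CAGAC. BAMBI held GGCGCC at 3 places (16.4% of all windows hold at least 1) and CAGAC at 2 (38% hold at least 1), of which the nearer to the start lies past the stretch shown. In the window nearest to each gene's deposited start, CAGAC was present in 5 of 9 inhibitors, GGCGCC in 3, GGAATG in 1 (TGIF2, against 11.9% of all windows) and TGANTCA in 0 (6.57% of all windows). A match describes letters only, and says nothing about whether a factor was bound.

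By the call used across all genes, an adjusted p under 0.05 in limma, 8 of the 10 inhibitors were called higher in the libraries labelled nPD-L1 and 0 lower. Of all 15076 genes tested, 4.04% were called higher and 0.922% lower. With a change of at least 2-fold also required, 7 of the 10 remained, against 2.03% of all genes, SMAD6 lying just inside that limit (2.003-fold) and SMURF1 outside it (1.67-fold). The 3 nPD-L1 values lay above the 3 vector values in 10 of 10 genes, against 12.0% of all genes. Because the genes were picked from this contrast, nothing is read from these shares. None of the 10 was lower at an unadjusted p under 0.05, or by edgeR or DESeq2. In SKIL, SKI, SMAD7, BAMBI and PMEPA1 the lowest nPD-L1 library was at least 2 times the highest vector library. The share of all genes with such a gap was not counted. In bulk RNA, more cells with a transcript and more transcript per cell cannot be told apart. The plot of scaled reads by library shows how far each gene moved.

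**Figure D1:**
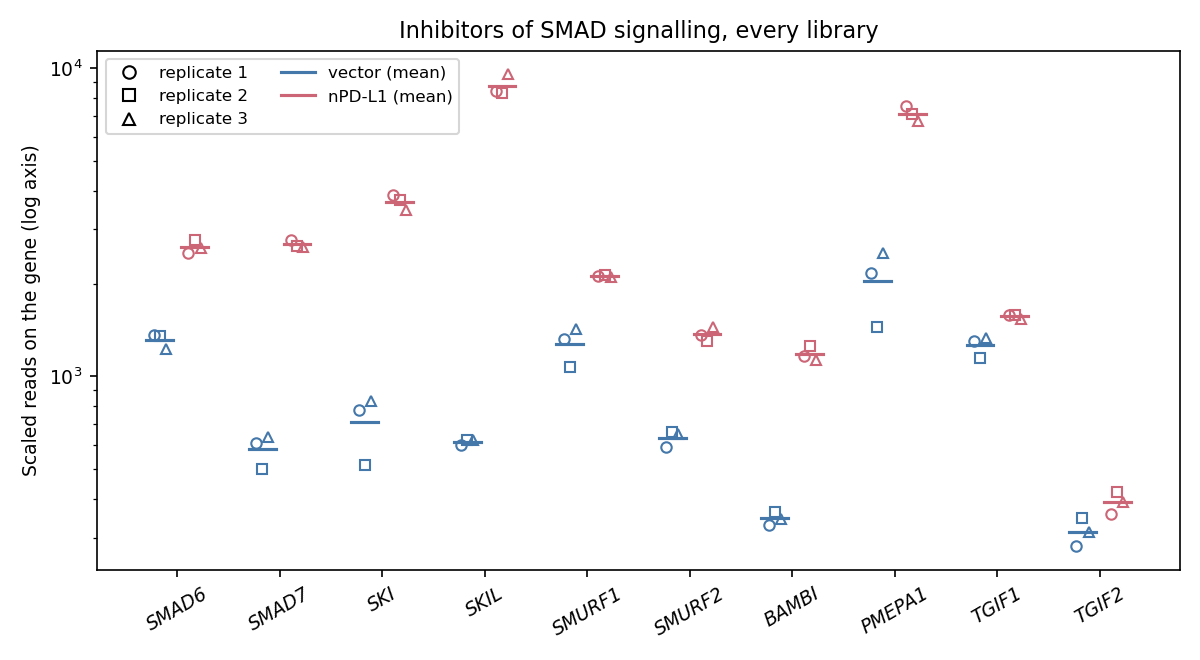
Scaled reads (log axis) of the 10 inhibitors in every library, with vector in blue, nPD-L1 in red, symbols for replicates and horizontal bars for group means (n = 3). All 3 nPD-L1 values lie above all 3 vector values for each gene, with the widest gap for SKIL (614 against 8770 on average) and the narrowest for TGIF2 (314 against 390).

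SMAD7 (ENSG00000101665, chr18:48919853-48952052, minus strand) is an inhibitory SMAD that blocks activated TGF-β and BMP receptors and brings ubiquitin ligases to them. It had 608, 499 and 634 scaled reads in vector replicates 1, 2 and 3, and 2767, 2640 and 2634 in nPD-L1 replicates 1, 2 and 3. The nPD-L1 libraries lay close together, well above the vector libraries, of which replicate 2 was lowest. The log2 fold change was 2.21 (SE 0.11), or 4.64-fold on the log2(value + 1) scale.

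SMAD6 (ENSG00000137834, chr15:66702228-66782848, plus strand) is the related inhibitory SMAD that acts mainly on BMP signalling. Vector replicates 1, 2 and 3 had 1364, 1351 and 1225 scaled reads, and nPD-L1 replicates 1, 2 and 3 had 2515, 2772 and 2604. The groups were separate and each was tight, with a log2 fold change of 1.002 (SE 0.096). Per 1000 bases of gene model, SMAD7 stood below SMAD6 in every vector library (ratio 0.756 ± 0.126, SD, n = 3) and above it in every nPD-L1 library (ratio 1.74 ± 0.127). The order of the pair by level per length was therefore opposite in the 2 groups. It depends on the deposited gene length. In scaled reads without that division, SMAD6 was still above SMAD7 in nPD-L1 replicate 2 (2772 against 2640).

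SKIL and SKI encode SnoN and SKI, corepressors that bind SMADs on DNA and recruit histone deacetylase complexes. SKIL (ENSG00000136603, chr3:170357678-170396835, plus strand) had 599, 623 and 621 scaled reads in vector replicates 1, 2 and 3. In nPD-L1 replicates 1, 2 and 3 it had 8441, 8317 and 9553. Its vector libraries differed by less than any other inhibitor's (SD 2.25% of the mean), and the lowest nPD-L1 library was 13.3 times the highest vector library. The log2 fold change was 3.83 (SE 0.10), a 14.2-fold difference and the 22nd highest of the 15076 genes tested.

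SKI (ENSG00000157933, chr1:2228695-2310119, plus strand) had 780.2, 515 and 830.4 scaled reads with vector, and 3888, 3724 and 3459 with nPD-L1. Vector replicate 2 was the low library, at 0.640 of the mean of the other vector libraries. All 3 vector libraries lay far below every nPD-L1 library. SKI was 5.31-fold higher in nPD-L1 (log2 fold change 2.41, SE 0.16), and 2.19 on the log2 scale without vector replicate 2. Per 1000 bases, SKIL was at 0.599, 0.946 and 0.585 of SKI in vector replicates 1, 2 and 3, and at 1.70, 1.74 and 2.16 of SKI in nPD-L1 replicates 1, 2 and 3. Per length, SKI thus stood above SKIL in every vector library and below it in every nPD-L1 library. In vector replicate 2 the genes were nearly level (84.7 for SKI and 80.1 for SKIL). Without division by length, SKIL was the higher there (623 against 515 scaled reads).

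SMURF1 and SMURF2 are E3 ubiquitin ligases that mark SMADs and, through SMAD7, the receptors for degradation. SMURF1 (ENSG00000198742, chr7:99027438-99144100, minus strand) had 1326, 1076 and 1430 scaled reads in vector and 2123, 2135 and 2095 in nPD-L1. The nPD-L1 libraries were almost equal, with an SD of 0.963% of the mean, and the vector libraries more scattered (14.2%). The log2 fold change was 0.74 (SE 0.12), and 0.62 without vector replicate 2. TRRAP, a gene whose model shares bases with SMURF1, had 1931 ± 508 scaled reads in vector and 2038 ± 112 in nPD-L1 (SD, n = 3), with overlapping groups.

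SMURF2 (ENSG00000108854, chr17:64542295-64662068, minus strand) had 588, 659.6 and 649.5 scaled reads in vector and 1363, 1302 and 1441 in nPD-L1. The groups were apart, and vector replicate 2 was not low here. SMURF2 was 2.16-fold higher (log2 fold change 1.11, SE 0.10). Its pseudogene SMURF2P1, which could share reads with it, had 79.8 ± 14.3 scaled reads in vector and 91.6 ± 9.86 in nPD-L1, with overlapping groups. The ratio of SMURF2 to SMURF1 per length was 0.454 ± 0.0854 in vector and 0.583 ± 0.0354 in nPD-L1, with overlap between single libraries (0.552 in vector replicate 2 against 0.5497 in nPD-L1 replicate 2).

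BAMBI (ENSG00000095739, chr10:28677342-28682939, plus strand) encodes a pseudoreceptor that resembles a type I receptor without the kinase. It had 329, 364 and 345 scaled reads in vector and 1167, 1257 and 1131 in nPD-L1. Both groups were tight, with SDs of 5.01% and 5.50% of the mean. The difference was 3.42-fold (log2 fold change 1.77, SE 0.11).

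PMEPA1 (ENSG00000124225, chr20:57648392-57711536, minus strand) encodes a membrane protein that sequesters receptor-regulated SMADs. Its scaled reads were 2170.1, 1449 and 2514 in vector and 7538, 7083 and 6724 in nPD-L1. Vector replicate 2 was again the low library, at 0.619 of the mean of the other vector libraries. PMEPA1 was 3.57-fold higher (log2 fold change 1.83, SE 0.17), and 1.61 on the log2 scale without that library. NKILA, a long noncoding gene on the opposite strand that shares 1354 bases with PMEPA1, had 50.5, 28.2 and 50.9 scaled reads in vector and 240.3, 213 and 203 in nPD-L1. The library kit does not mark strand, so reads of PMEPA1 and NKILA in the shared stretch cannot be told apart.

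TGIF1 and TGIF2 encode homeodomain repressors that compete with coactivators on SMAD complexes. TGIF1 (ENSG00000177426, chr18:3411608-3459978, plus strand) had 1300.0, 1149 and 1335 scaled reads in vector and 1579, 1583 and 1531 in nPD-L1. TGIF2 (ENSG00000118707, chr20:36573488-36593950, plus strand) had 282, 347 and 313 in vector and 356, 421 and 393 in nPD-L1. The TGIF2 groups almost met, the lowest nPD-L1 library being 1.03 times the highest vector library. Neither gene was called, with log2 fold changes of 0.31 (SE 0.10) for TGIF1 and 0.31 (SE 0.13) for TGIF2, or 1.24-fold each. The ratio of TGIF1 to TGIF2 per length was 1.87 ± 0.311 in vector and 1.86 ± 0.163 in nPD-L1.

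In vector, 5 of the 10 inhibitors had an SD above 10% of the mean (SKI, SMAD7, SMURF1, PMEPA1 and TGIF2), and in nPD-L1 0 of 10 did. Vector replicate 2 was the lowest vector library in 5 of the 10 genes (SKI, SMAD7, SMURF1, PMEPA1 and TGIF1) and not in the other 5. Of the 10 genes, 8 stayed called when any single library was left out.

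Levels between genes were compared only as scaled reads per 1000 bases of the deposited gene length. In vector, PMEPA1 was highest (364 ± 96.7, SD, n = 3), followed by SMURF1 (204 ± 28.97). TGIF1 (153 ± 12.1), SMAD6 (153 ± 8.93) and BAMBI (149 ± 7.49) came next and overlapped from neighbour to neighbour. SKI (117 ± 27.9) and SMAD7 (115 ± 14.2) overlapped as well. At the low end, TGIF2 (82.9 ± 8.61) overlapped with both SMURF2 (90.9 ± 5.53) and SKIL (79.0 ± 1.78). SMURF2 and SKIL did not overlap, with a lowest library of 84.5 for SMURF2 and a highest of 80.1 for SKIL. SKIL was thus the lowest by mean in vector, without being apart from TGIF2.

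In nPD-L1 the order was different. PMEPA1 (1266 ± 72.6) and SKIL (1127 ± 87.5) led with overlapping libraries, so that SKIL had gone from place 10 to place 2. SKI (607 ± 35.6) came next, and SMAD7 (533 ± 15.0) and BAMBI (512 ± 28.2) overlapped below it. SMURF1 (337 ± 3.25), SMAD6 (307 ± 15.3), SMURF2 (197 ± 10.05) and TGIF1 (190.3 ± 3.52) followed, of which the last pair overlapped. TGIF2 (103 ± 8.54) was lowest. The plot of levels per length shows TGIF1 dropping from place 3 to place 9 although its own level per length was not lower.

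**Figure D2:**
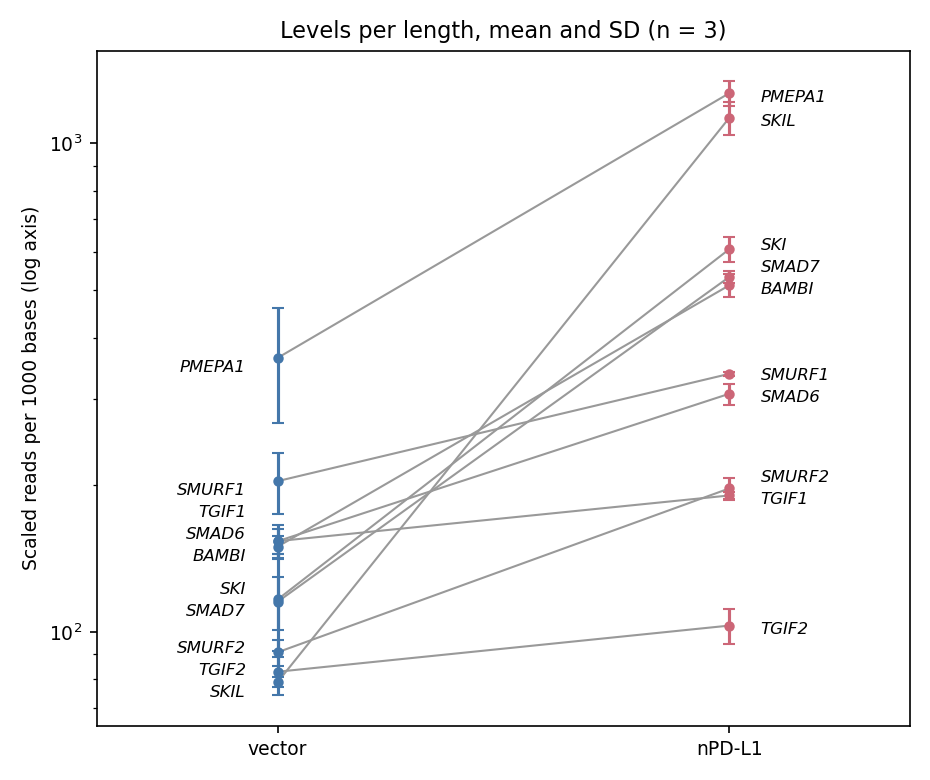
Scaled reads per 1000 bases of gene model (log axis) for each inhibitor in vector (left) and nPD-L1 (right), with points and bars for mean and SD (n = 3) and grey lines joining the same gene. SKIL crosses most other genes, from 79.0 to 1127, while the lines of TGIF1 and TGIF2 are nearly flat.

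Summed over the 10 genes, the level per 1000 bases was 1508 ± 160 in vector and 5179 ± 48.9 in nPD-L1 (SD, n = 3). Without SKIL, the sums were 1429 ± 160 and 4052 ± 124. SKIL made up 5.28% ± 0.632 of the sum in vector and 21.8% ± 1.83 in nPD-L1. SKI went from 7.65% ± 1.13 to 11.7% ± 0.588, and SMAD7 from 7.63% ± 0.198 to 10.3% ± 0.195. PMEPA1 (23.8% ± 4.05 and 24.4% ± 1.18) and BAMBI (10.02% ± 1.53 and 9.89% ± 0.552) held about the same share in both groups. SMURF1 held 13.5% ± 0.530 and 6.52% ± 0.0650, and TGIF1 held 10.2% ± 0.312 and 3.67% ± 0.0527. Shares add up to the whole in each library, so a smaller share is not a lower level.

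**Figure D3:**
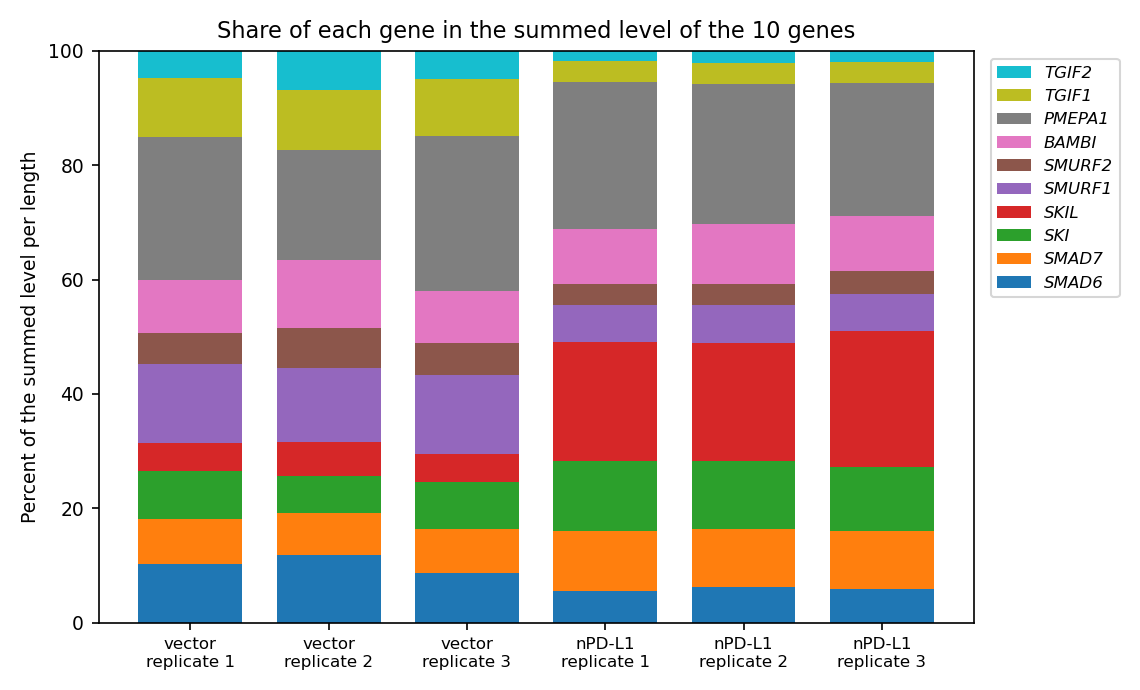
Share of each inhibitor in the summed scaled reads per 1000 bases, in percent, for each of the 6 libraries. The red SKIL segment widens from 5.28% on average in vector to 21.8% in nPD-L1, and the olive TGIF1 segment narrows from 10.2% to 3.67%.

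The tested genes whose pattern over the 6 libraries was most like that of SKIL, SKI and SMAD7 were found by the root mean square difference of log2(value + 1) after centring each gene on its mean. For SKIL these were KCNA7 (0.12), DUSP26 (0.18) and LBH (0.19). LBH, the only gene of the 3 with more than a few vector reads, had 94.9, 140.0 and 95.6 scaled reads in vector and 1610.1, 1543 and 1574 in nPD-L1. KCNA7 had 0 reads in every vector library and 10.9 to 12.1 scaled reads in nPD-L1, at least 3.63-fold higher against a floor of 3 reads per vector library. DUSP26 had 1 read in each vector library and 22.3 to 32.8 scaled reads in nPD-L1. Both passed the filter only through nPD-L1, and their distance to SKIL depends on the pseudocount. For SKI they were NKILA (0.076), KLF7 (0.16) and GPR157 (0.17), and for SMAD7 PFKFB3 (0.096), NUAK1 (0.11) and KLF7 (0.12).

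The remaining genes of the pathway were taken from 7 lists written with earlier results of these data known. Of 107 genes listed, 101 were in the table and 88 were tested. By limma with Benjamini-Hochberg adjustment over all genes, 25 of the 88 were higher in nPD-L1 and 3 lower, with a median log2 fold change of 0.21, against 1.44 for the 10 inhibitors and -0.019 for all genes tested. Of all genes, 4.04% were called higher and 0.922% lower, shares against which each list's count below is to be read. For these lists the counts are a description of the pathway around the inhibitors.

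Among 13 tested ligands, 1 rose and 1 fell, beside 4.04% and 0.922% of all genes, and the median log2 fold change was -0.16. Single calls are too few to set against those shares. BMP2, a BMP ligand, rose from 19.6 ± 6.91 to 88.5 ± 9.77 scaled reads (log2 fold change 2.17, SE 0.29, adjusted p = 0.00132). GDF15, a distant TGF-β family member induced by stress, fell from 4529 ± 973 to 1856 ± 313 (log2 fold change -1.28, SE 0.17, adjusted p = 0.00131). TGFB1, TGFB2 and TGFB3 did not pass the test.

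Among 13 tested receptors, 3 rose and 1 fell, with a median log2 fold change of 0.035. BMPR2, the type II BMP receptor, rose from 621 ± 59.3 to 2242 ± 242 scaled reads (log2 fold change 1.85, SE 0.12, adjusted p = 5.65e-06). The type I receptors TGFBR1 (log2 fold change 0.73, SE 0.12, adjusted p = 0.00356) and ACVR1 (0.66, SE 0.14, adjusted p = 0.0208) rose less. TGFBR2, the type II TGF-β receptor, fell from 3611 ± 306 to 2542 ± 180 (log2 fold change -0.50, SE 0.10, adjusted p = 0.0171).

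None of the 6 signalling SMADs passed the test by limma. SMAD3, a receptor-regulated SMAD of TGF-β signalling, had 5203 ± 844 in vector and 6827 ± 216 in nPD-L1 (log2 fold change 0.40, SE 0.13, adjusted p = 0.12). The largest log2 fold change among them was 1.15 (SE 0.45, adjusted p = 0.255 by limma), for the low-count SMAD9. At an unadjusted p under 0.05, 3 of the 6 were higher (SMAD3, SMAD4 and SMAD9) and 0 lower, and edgeR and DESeq2 called 0.

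Of 7 tested secreted antagonists, 3 were called higher and 0 lower, with a median log2 fold change of 0.54. NOG, which encodes noggin, a BMP binder outside the cell, had 7.21 ± 5.26 scaled reads in vector and 132 ± 47.1 in nPD-L1. FSTL3, a follistatin-like activin binder, rose from 1506 ± 147 to 3367 ± 437 (log2 fold change 1.16, SE 0.12, adjusted p = 0.000197). LEFTY2, a Nodal antagonist, had 0 reads in every vector library and 24.4, 24.3 and 24.1 scaled reads in nPD-L1, at least 7.63-fold higher against a floor of 3 reads per vector library. NOG and LEFTY2 passed the filter on low values only through nPD-L1, so their calls are no evidence of a difference. With 10 or more required in every library, 23 of the other pathway genes were called higher. No member was lower at an unadjusted p under 0.05 or by edgeR or DESeq2. The list's median was the same with LEFTY2 at that bound.

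Of 21 tested genes for SMAD turnover and corepression other than the 10 inhibitors, 1 rose and 1 fell. These were again single calls, beside 4.04% and 0.922% of all genes, and the median log2 fold change was -0.0010. PPM1A, a phosphatase that acts on SMADs, rose from 1054 ± 44.1 to 1424 ± 21.6 (log2 fold change 0.43, SE 0.09, adjusted p = 0.021). TOB1, an antiproliferative protein that binds SMADs, fell from 821 ± 212 to 411 ± 13.1 (log2 fold change -0.97, SE 0.16, adjusted p = 0.00518).

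Among 19 TGF-β target genes tested, by limma, 13 rose and 0 fell, beside 4.04% and 0.922% of all genes, with a median log2 fold change of 1.23. Among the highest were PDGFB (log2 fold change 5.54, SE 0.21) and JUNB (4.62, SE 0.13), encoding a growth factor chain and an AP-1 subunit. PDGFB had 35.1 ± 11.98 scaled reads in vector and 1626 ± 116 in nPD-L1. The 3 lowest that passed were KLF10 (0.87, SE 0.16), SPHK1 (0.97, SE 0.11) and CDKN1A (1.22, SE 0.12). Of 9 tested BMP targets, 4 rose and 0 fell, with a median log2 fold change of 0.47. These were HEY1 (3.48, SE 0.20), ID3 (2.58, SE 0.21), ID1 (1.67, SE 0.14) and ID4 (0.77, SE 0.13), while ID2 had 0.24 (SE 0.11, adjusted p = 0.36 by limma). Beside the 0 that fell by limma in these lists, 1 gene of each was lower at an unadjusted p under 0.05 (THBS1 and MSX1), DESeq2 called THBS1 lower and edgeR called 0.

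**Figure D4:**
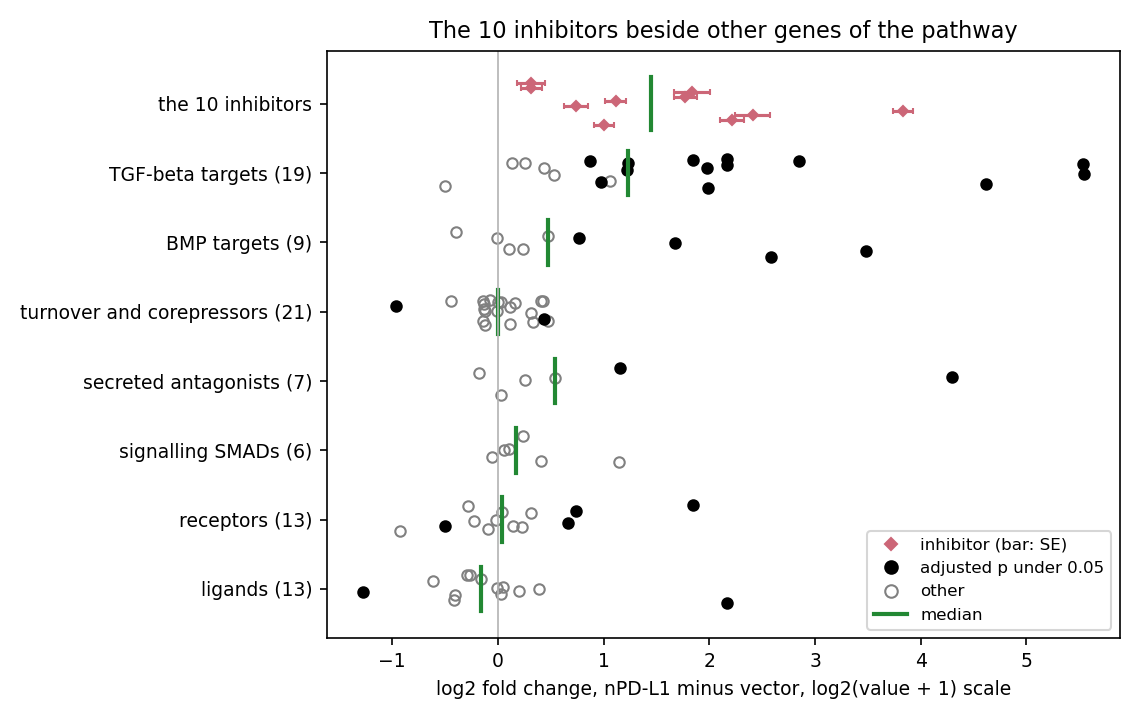
Log2 fold change, nPD-L1 minus vector on the log2(value + 1) scale, of the 10 inhibitors (red, bars for SE) and of the tested genes of 7 pathway lists, with filled circles for genes called in limma and green lines for medians. LEFTY2, with 0 reads in vector, is not drawn, and the inhibitors and TGF-β targets lie to the right with medians of 1.44 and 1.23, while the medians of ligands, receptors and signalling SMADs lie between -0.16 and 0.17.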

How the data were processed

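RNA was extracted with TRIzol Plus, libraries were made with the NEBNext Ultra RNA kit, and sequencing and analysis were done by a company (CASAVA, HISAT2 2.0.5 and hg38 in the submitters' processing notes). The counter is not given in the sources used here. Per library, the authors deposited a signal, gene reads scaled by a size factor, although the table calls it raw. All values (100%) were whole multiples of 1 read within 0.001 read, so reads were recovered. Groups and replicate numbers came from the sample titles. The table also holds the authors' means, fold changes and p-values, which were not used. Gene models matched GENCODE 29 for all 10 inhibitors.

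As the values were not whole counts, the main test was limma 3.58.1 (R 4.3.3; trend and robust moderation) on log2(value + 1), for genes with at least 10 in at least 3 libraries, with Benjamini-Hochberg adjustment over all of them. It was tested on simulated data. Fold changes on this scale understate the change of low genes. Alternatives were upper-quartile and TMM scaling, pseudocounts of 0.1 and 10, other filters, non-robust moderation, a replicate block, edgeR 4.0.16 and DESeq2 1.42.0 on recovered reads, a 2-fold limit, and each library left out. The members and lists were chosen with earlier results of these data known. Genes named beside the inhibitors were CD274, the called genes of each pathway list (the 3 highest and 3 lowest fold changes where over 6 were called), the gene with the highest mean value of a list without calls, and the 3 genes most like SKIL, SKI and SMAD7. Outside this rule, markers, genes that overlap or resemble an inhibitor (TRRAP, NKILA and SMURF2P1) and TGFB1, TGFB2, TGFB3, SMAD4, SMAD9, THBS1, MSX1 and ID2 were named after their values were seen. Protein sequences, and the AFP, GPC3, COL1A2, COL3A1, CDH5, KDR, CD3E and CD68 markers, were not analysed here, and 1 gene that the naming rule selected is not reported here.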

Additional observations from a re-analysis of the deposited data

How the results depend on the processing

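The log2 fold changes of the 10 inhibitors moved by less than 1 SD between replicates in all 160 combinations of gene and alternative fit, and none was reversed. Most of these combinations could not have come out otherwise. The other filters, non-robust moderation and the replicate block leave a log2 fold change as it is. Leaving out 1 library cannot move it by 1 SD, nor reverse it where the groups are separate. Only the scaling, pseudocount, edgeR and DESeq2 fits could have done so. 8 were called higher and 0 lower under every alternative except the 2-fold limit, which called 7, and TGIF1 and TGIF2 were called under none. Groups that are separate with all 6 libraries stay so when 1 is left out, so their separation was not checked further. Leaving out 1 library gave SKIL log2 fold changes of 3.77 to 3.87, SKI 2.19 to 2.54 and PMEPA1 1.61 to 2.002. Counts over all genes moved more. Against 609 higher and 139 lower, leaving out 1 library gave 350 to 793 higher and 77 to 244 lower, the most calls coming without vector replicate 2 (793 and 244) and the fewest without nPD-L1 replicate 3 (350 and 77), with 356 and 84 without nPD-L1 replicate 1, 403 and 86 without nPD-L1 replicate 2, and 407 and 78 without vector replicate 1. The 2-fold limit gave 306 and 68. Of the other pathway genes (25 higher and 3 lower), leave-one-out fits called 22 to 30 higher and 2 to 4 lower, the 2-fold limit 19 and 1, and DESeq2 26 and 5. The causes were not tested, beyond the fewer samples and the stricter limit. With a replicate block, 927 genes were called higher and 258 lower, and 30 and 5 of the other pathway genes, while the inhibitors' calls did not change. Deviations of same-numbered libraries correlated at -0.013, 0.23 and 0.13, and those of differently numbered libraries at -0.22 to 0.079. So few values cannot decide whether the numbers pair the libraries. Each inhibitor had at least 279 reads, with a counting error of at most 5.99%, and for SKIL in vector (SD 2.25% of the mean) and SMURF1 in nPD-L1 (0.963%) the spread between libraries was below counting error.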
